A study of Mus musculus with 8 samples.

Results

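The 45 mitosis and kinetochore genes encode the cyclins, kinases, motors, kinetochore proteins, checkpoint proteins and cytokinesis factors that carry a cell through division. They were chosen by gene symbol, and all 45 had a row among the 19457 gene rows of the deposited expression table. All 45 also passed the filter on low values, which left 11870 genes in the test. The cells were primary keratinocytes of mouse skin, grown in culture and harvested for RNA sequencing while still below confluence. Wild-type mice (WT) gave 4 libraries, and mice with the HOIL1 ΔRING1 allele (HdR), in which the first RING domain of HOIL1 is missing, gave the other 4. The protein HOIL1, the product of Rbck1, works with HOIP and SHARPIN in the complex that builds linear ubiquitin chains, and the series title places the work in linear ubiquitination, TNF-α/NF-κB signalling and psoriatic inflammation. Both groups were untreated as far as the labels say. The labels give no strain, age, sex or passage, and state neither whether every cell type carried the ΔRING1 allele nor whether each library stands for its own mouse. What the p-values measure is thus limited to the spread among the 4 libraries of a group.

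Mitosis begins when cyclin B and CDK1 switch on together, pushed by PLK1 and Aurora A. Condensin and topoisomerase II compact the chromosomes, kinesins and TPX2 build the spindle, and the NDC80 complex ties microtubules to the kinetochore at each centromere. The spindle assembly checkpoint holds CDC20 back until every kinetochore is attached, after which the anaphase-promoting complex destroys securin and cyclin B. Most of these genes are transcribed in waves that peak in G2 and M phase, under FOXM1, B-MYB and the MuvB complex, so in a bulk culture their transcripts track the share of cells in those phases. In the epidermis, cell division belongs to basal keratinocytes and stops as cells move to the suprabasal layers. In bulk RNA, more dividing cells and more transcript per dividing cell cannot be told apart.

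Levels are given as normalised coverage, the aligned bases over a gene per megabase of the library's scaled total (per Mb). WT libraries held 4.78 to 5.43 Gb of aligned bases and HdR libraries 2.31 to 4.31 Gb, so depth and genotype cannot be told apart. A comparison with all libraries thinned to the smallest total is given beside the results it touches. Rbck1, which encodes HOIL1, had a WT level of 87.4 ± 3.41 per Mb and an HdR level of 43.7 ± 1.84 (SD over 4 libraries). This coverage is summed over the whole gene and does not show the deleted part. The basal keratin genes that define the cell type were abundant in both groups, with Krt5 at 17271 per Mb in WT and 18597 in HdR and Krt14 at 17458 and 17032. Of 6 basal keratinocyte markers, 4 were higher in HdR at a limma adjusted p under 0.05 and 0 lower, against 21.7% and 23.4% of all tested genes. The 4 were Itgb4 (log2 fold change 0.43), Itga6 (0.28), Col17a1 (0.14) and Krt5 (0.11), while Krt14 and Trp63 did not pass. The list summed to 38250 to 41390 per Mb in WT and 41240 to 42520 in HdR.

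Mitosis and kinetochore transcripts were higher in HdR keratinocytes in each sub-step of division, by modest amounts, and 7 genes did not pass the test. Of the 45 genes, 38 were called higher at a limma adjusted p under 0.05 and 0 lower. Over all 11870 tested genes, 21.7% were called higher and 23.4% lower. The count at an unadjusted p under 0.05 was 39 higher and 1 lower. Limma-voom called 39 higher and 0 lower, against 23.5% and 25.3% of all tested genes, and both directions together made up 45.1% of tested genes in the limma fit. With every library thinned to the total of the smallest, 37 were higher and 0 lower, against 18.9% and 18.7% of the genes tested there. The 38 called genes were 1.12 to 1.51 times their WT mean, with a median of 1.24. Over all 45 the median log2 fold change was 0.29, against -0.0073 over all tested genes. In 36 of the 45, every HdR library lay above every WT library, a pattern that 20.2% of tested genes showed, and in 0 of the 45 the reverse held, which 20.9% showed. Against a null of a 1.2-fold change, 6 of the 45 were called higher and 0 lower (2.92% and 4.52% of all tested genes), and these 6 were Plk1, Kif20a, Spc25, Cdc20, Birc5 and Hmmr. Together the 45 genes took 2975, 2974, 2929 and 3243 per Mb in WT 1 to WT 4 and 3727, 3677, 3845 and 3622 in HdR 1 to HdR 4, so the groups did not overlap and WT 4 was the highest WT library.

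**Figure D1:**
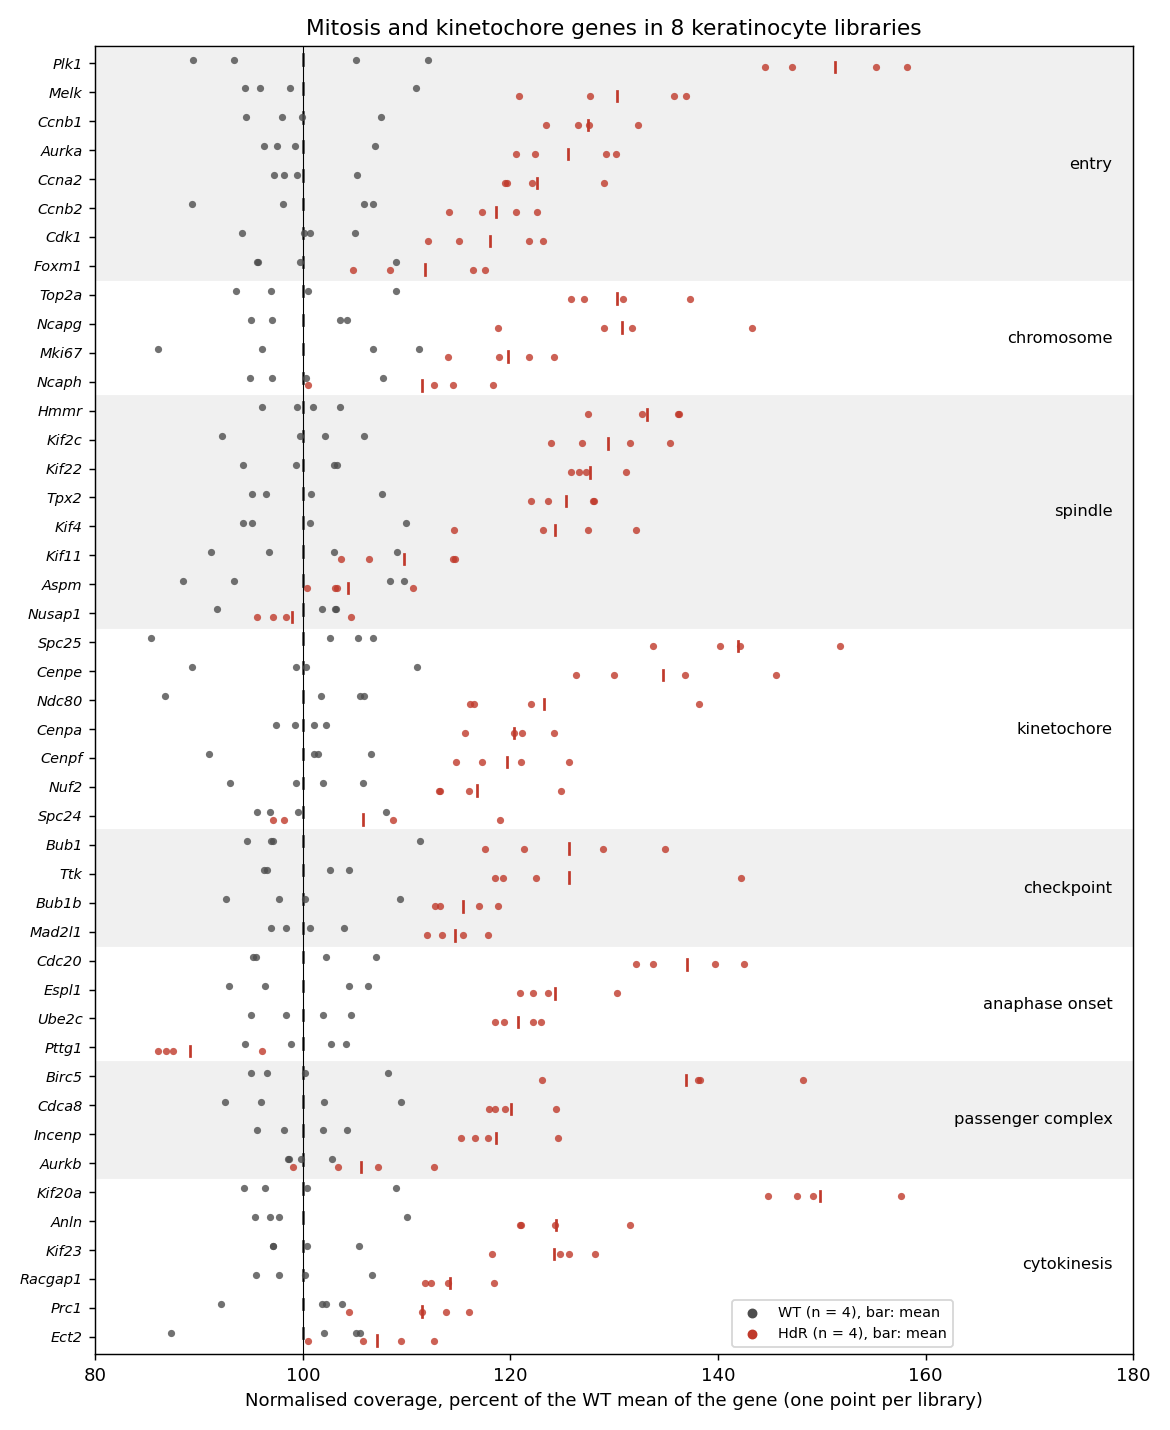
Normalised coverage of each of the 45 genes in each library as a percentage of the gene's WT mean, with grey points for the 4 WT libraries, red points for the 4 HdR libraries, a bar at each group mean and bands for the 8 sub-steps. Red points lie to the right of all grey points in 36 genes, while Foxm1, Ncaph, Kif11, Nusap1, Spc24, Aurkb, Aspm and Ect2 overlap. The red points of Pttg1 also overlap its grey points and lie to the left of its WT mean.

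The start of many G2 and M phase genes carries 2 short elements. The cell cycle genes homology region (CHR) is bound by MuvB complexes, and the CCAAT box is bound by NF-Y. Both were searched by letters, TTTGAA for the CHR and CCAAT for the box, on both strands, in the RefSeq windows of GRCm38.p6 that run from 250 bases before to 50 bases after each transcription start. Matches of the 2 motifs can share at most 1 letter. Of the 45 genes, 38 matched a window. Ccna2, Foxm1, Aurkb, Incenp, Kif20a, Tpx2 and Spc24 are the other 7. Some genes had 2 starts, giving 40 windows. TTTGAA stood in 30 of the 40 windows (75%), against 17.9% of all 32851 windows and 12% of the 11880 windows of tested genes. CCAAT stood in 30 windows as well (75%), against 37.4% and 37.6%. Both occurred in 27 windows (67.5%), against 6.95% and 4.9%. In 28 of the 40 windows (70%) the first base of a TTTGAA match lay within 60 bases of the start, against 3.42% of the windows of tested genes.

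The stretches below are the 100 bases before the RefSeq start in 6 genes whose motifs lie upstream of it. They were picked after the positions were seen and are shown because they run from Cdc20 at a log2 fold change of 0.45 to Kif11, which was not called, and up to 27 of the bases lie in annotated exons. Capitals mark the CHR and CCAAT box letters on either strand, and each sequence reads 5′ to 3′ toward the gene.
Cdc20, chr4:118437344-118437443, minus strand: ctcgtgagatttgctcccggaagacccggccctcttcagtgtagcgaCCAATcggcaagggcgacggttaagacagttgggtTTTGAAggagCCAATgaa
Cdk1, chr10:69352913-69353012, minus strand: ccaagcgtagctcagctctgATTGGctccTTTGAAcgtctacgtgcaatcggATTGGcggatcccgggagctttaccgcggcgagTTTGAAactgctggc
Top2a, chr11:99024190-99024289, minus strand: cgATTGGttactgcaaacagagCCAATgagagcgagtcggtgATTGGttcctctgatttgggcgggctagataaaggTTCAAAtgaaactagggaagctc
Espl1, chr15:102296193-102296292, plus strand: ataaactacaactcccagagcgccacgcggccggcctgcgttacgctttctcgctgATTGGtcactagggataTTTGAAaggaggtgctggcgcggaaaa
Ncapg, chr5:45669825-45669924, plus strand: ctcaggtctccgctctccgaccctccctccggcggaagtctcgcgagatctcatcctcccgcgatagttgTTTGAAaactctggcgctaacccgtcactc
Kif11, chr19:37376282-37376381, plus strand: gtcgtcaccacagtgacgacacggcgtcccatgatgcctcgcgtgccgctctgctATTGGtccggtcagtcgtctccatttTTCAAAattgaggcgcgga
In all 6 the CHR letters nearest the start begin 15 to 30 bases before it. In 5 of them a CCAAT box begins 17 to 35 bases further upstream, whereas Ncapg has no box in this stretch.

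The 28 genes with TTTGAA had a median log2 fold change of 0.297 and the 10 without it 0.27, with 25 and 8 of them called higher. The 7 genes with neither motif were Birc5, Melk, Nuf2, Mad2l1, Ncaph, Nusap1 and Pttg1, and they ran from 0.44 for Birc5 to -0.16 for Pttg1, with a median of 0.194. The 25 genes with both motifs had a median of 0.271 and the other 13 a median of 0.315. For Pttg1 and Nusap1, all 100 bases before the RefSeq start lie in annotated exons. Those of Nusap1 (chromosome 2, 119618198 to 119618297) end just before the span of the gene in GENCODE, which starts at 119618298. Those of Pttg1 (chromosome 11, 43425982 to 43426081) lie inside the span of the gene in GENCODE (43420250 to 43426251). The bases upstream of that span were not searched, so an absence of the motifs there is not shown. These counts are descriptions of the letters in these windows, with no test.

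**Figure D2:**
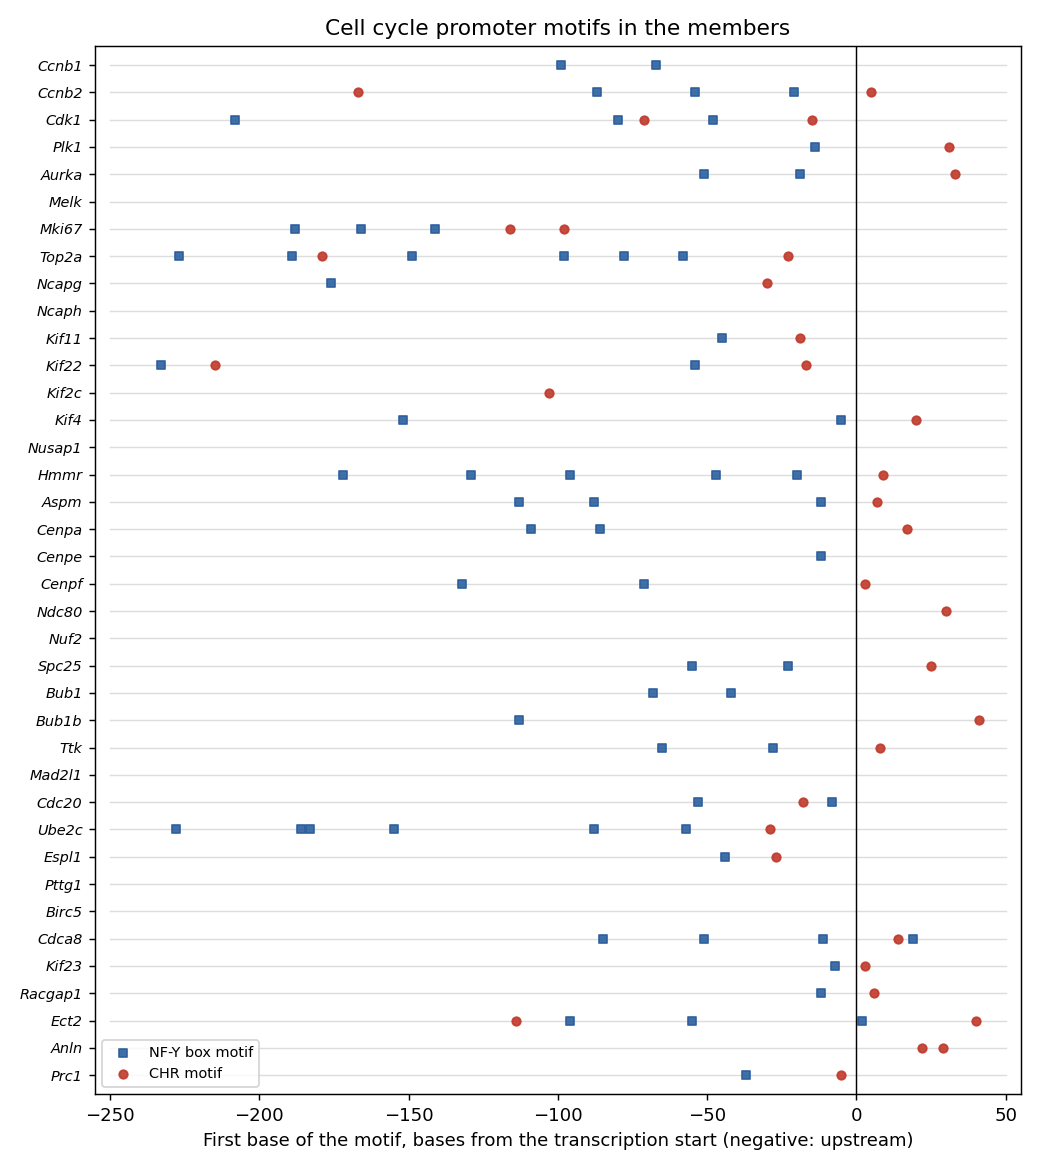
Position of the first base of each CHR match (red circles) and each NF-Y box match (blue squares) relative to the transcription start in the first RefSeq window of 38 genes. Red circles gather close to the start, most of the blue squares lie upstream of them, and 7 genes including Pttg1 and Nusap1 show neither.

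Of the 8 genes that drive mitotic entry, all 8 were called higher, with a median log2 fold change of 0.31. Plk1, the polo-like kinase that activates CDK1 and later acts at kinetochores and the midbody (GRCm38 chromosome 7, 122159439 to 122169873), had the largest fold change of the 45. It measured 57.1, 54.7, 64.3 and 68.5 per Mb in WT 1 to WT 4 and 88.4, 95.0, 96.7 and 89.998 in HdR 1 to HdR 4. Every HdR library was above every WT library, and the log2 fold change was 0.59 ± 0.062 (SE; adjusted p = 2.36e-06 with limma), while 1.85% of all tested genes rose that much or more. Ccnb1, the main mitotic cyclin, measured 101, 107, 105 and 115 in WT and 137, 136, 142 and 132 in HdR (log2 fold change 0.35 ± 0.043). Its catalytic partner Cdk1 went from 113, 106, 113 and 118 to 130, 126, 139 and 137 (0.24 ± 0.043). The ratio of Ccnb1 to Cdk1 within a library is given with the other partner ratios. Ccnb2 (0.25 ± 0.054) and Ccna2, the S and G2 phase cyclin (0.29 ± 0.040), moved by similar amounts. The Aurora A gene Aurka rose from 56.8 ± 2.74 to 71.3 ± 2.73 per Mb (SD, n = 4) and the kinase gene Melk from 35.5 ± 2.66 to 46.3 ± 2.68. Foxm1, the transcription factor for many of the others, had the smallest change of this sub-step and overlapping groups. Its levels were 42.8, 44.6, 42.8 and 48.8 in WT and 52.6, 46.9, 52.1 and 48.5 in HdR (0.16 ± 0.055, adjusted p = 0.0271). The Foxm1 call was lost with no filter on low values (adjusted p = 0.0567) and without WT 1 (0.0886), WT 3 (0.0566), HdR 1 (0.0943) or HdR 3 (0.081).

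The 4 genes of chromosome structure were all called higher (median 0.32). Top2a, which untangles sister chromatids, measured 214, 222, 207 and 241 in WT and 289, 281, 303 and 278 in HdR, with no overlap (log2 fold change 0.38 ± 0.045). Mki67, whose protein Ki-67 coats mitotic chromosomes and is the routine marker of cycling cells, measured 228, 254, 204 and 264 in WT and 289, 271, 295 and 283 in HdR (0.26 ± 0.072, adjusted p = 0.0136). Its WT libraries were spread more widely than those of most of the 45 genes, and the lowest HdR library lay just above WT 4. Of the condensin I subunit genes, Ncapg went from 32.8 ± 1.52 to 42.8 ± 3.3 per Mb (SD, n = 4, 0.37 ± 0.059), whereas Ncaph went from 34.9 ± 1.96 to 38.9 ± 2.69, with overlapping groups (0.15 ± 0.06, adjusted p = 0.0471). The Ncaph call was lost in the thinned comparison (adjusted p = 0.187), with no filter (0.0872) and without WT 1, WT 2, WT 3, HdR 1, HdR 2 or HdR 3 in turn (0.0846 to 0.149). Ncapg shares 20.8% of its exon length with Lcorl on the opposite strand, and strand use in the counting is not stated.

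Spindle genes included 3 of the 7 genes that were not called, with 5 of 8 higher and 0 lower (median 0.32; 6 higher and 0 lower both at an unadjusted p under 0.05 and with limma-voom). Hmmr, which organises spindle poles, rose most and measured 61.9, 57.4, 59.4 and 60.3 in WT and 81.4, 76.2, 81.3 and 79.3 in HdR (0.41 ± 0.043). WT 4 was not the highest WT library for Hmmr. Kif2c, a microtubule-depolymerising kinesin (0.36 ± 0.055), the chromokinesin genes Kif22 (0.34 ± 0.05) and Kif4 (0.31 ± 0.058), and Tpx2, the activator of Aurora A (0.32 ± 0.043), also rose with no overlap between groups. Kif4 shares 16.7% of its exon length with Pdzd11 on the opposite strand. The remaining 3 genes did not pass the test. Kif11, the motor that pushes spindle poles apart, measured 59.6, 63.5, 56.2 and 67.2 in WT and 65.6, 63.9, 70.5 and 70.6 in HdR (log2 fold change 0.13 ± 0.055, adjusted p = 0.057). It was called with upper-quartile scaling (adjusted p = 0.0189), library totals only (0.0411) and limma-voom (0.038), and without WT 4 (0.0159) or HdR 2 (0.0395). Aspm, a spindle-pole protein gene, was at 31.9 ± 3.4 and 33.3 ± 1.4 (0.064 ± 0.068). Nusap1, a microtubule-bundling protein gene, was level in the groups, at 34.3, 30.5, 34.3 and 33.9 in WT and 34.8, 31.8, 32.3 and 32.7 in HdR. Its log2 fold change was -0.014 ± 0.056 and changed sign with upper-quartile scaling (0.022) and with library totals only (0.0086).

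At the kinetochore, 6 of 7 genes were called higher and 0 lower (median 0.26; 6 and 0 at an unadjusted p under 0.05 and with limma-voom). The NDC80 complex has 4 subunits, and their log2 fold changes ran from 0.075 to 0.49. Spc25 measured 23.9, 19.9, 24.6 and 24.9 in WT and 31.2, 35.4, 33.2 and 32.7 in HdR, the largest change of the kinetochore genes (0.49 ± 0.07). Its direct partner in the complex, Spc24, measured 22.5, 21.6, 24.4 and 21.9 in WT and 24.6, 26.9, 21.99 and 22.2 in HdR and was not called (0.075 ± 0.071, adjusted p = 0.411). The microtubule-binding pair Ndc80 (0.29 ± 0.075) and Nuf2 (0.22 ± 0.057) lay between them, both with separated groups. Cenpe, a kinesin that carries chromosomes to the spindle equator, rose from 54.6, 54.1, 48.6 and 60.4 to 74.5, 68.8, 79.2 and 70.8 (0.42 ± 0.061). Cenpf (0.26 ± 0.052) and the centromeric histone gene Cenpa (0.26 ± 0.043) rose less, and Cenpa had tight groups, with 53.0 to 55.6 in WT and 63.0 to 67.6 in HdR.

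The 4 genes chosen for the spindle assembly checkpoint were uniform, with all 4 called higher and no overlap between groups. Their log2 fold changes ran from 0.19 to 0.32. This uniformity is shown for these 4 genes only, not for every gene of the checkpoint. Bub1, a kinase of the kinetochore, measured 35.1, 34.2, 35.0 and 40.2 in WT and 42.5, 43.8, 48.7 and 46.5 in HdR (0.32 ± 0.06). Ttk, the kinase that starts checkpoint signalling, was at 20.6 ± 0.863 and 25.9 ± 2.31 (SD, n = 4, 0.31 ± 0.067). The genes of the CDC20-binding inhibitors rose least, with Bub1b at 0.21 ± 0.051 and Mad2l1 at 0.19 ± 0.044. The gene of their target, Cdc20, is described with the anaphase genes.

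At anaphase onset 3 of 4 genes were called higher and 0 lower (median 0.29; 3 and 1 at an unadjusted p under 0.05, 3 and 0 with limma-voom), and the fourth, Pttg1, had the lowest log2 fold change of the 45. Cdc20, the activator of the anaphase-promoting complex (chromosome 4, 118432901 to 118437352), measured 100, 101, 108 and 113 in WT and 141, 147, 150 and 139 in HdR (0.45 ± 0.044, adjusted p = 4.77e-07). Ube2c, the ubiquitin-conjugating enzyme of that complex, measured 133, 128, 137 and 141 against 161, 165, 166 and 160 (0.27 ± 0.038). Ube2c shares 22.8% of its exon length with Tnnc2 on the opposite strand. Espl1, which encodes the cohesin-cutting protease separase, rose from 25.8, 26.8, 29.0 and 29.5 to 33.9, 33.6, 36.2 and 34.3 (0.31 ± 0.058). Securin, the inhibitor that binds separase until anaphase, is encoded by Pttg1 (chromosome 11, 43420250 to 43426251). Pttg1 measured 19.2, 20.2, 19.96 and 18.3 in WT and 17.0, 18.7, 16.9 and 16.7 in HdR, so HdR 2 overlapped the WT range and the other HdR libraries lay below it. Its log2 fold change of -0.16 ± 0.065 missed the threshold (adjusted p = 0.0561), was the 1 lower gene at an unadjusted p under 0.05, and was called without WT 4 (adjusted p = 0.0445) or without HdR 2 (0.0323).

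In the chromosomal passenger complex, which corrects faulty attachments and then moves to the central spindle, 3 of 4 genes were called higher and 0 lower (median 0.25; 3 and 0 at an unadjusted p under 0.05 and with limma-voom). Birc5, which encodes survivin, rose from 45.5, 44.7, 47.2 and 51.0 to 69.8, 65.1, 65.0 and 57.9 (0.44 ± 0.058). The scaffold gene Incenp rose from 84.0 to 91.5 in WT to 101 to 109 in HdR (0.24 ± 0.042), and Cdca8, which encodes borealin, from 77.4 ± 5.77 to 92.9 ± 2.27 (SD, n = 4, 0.26 ± 0.049). Aurkb, the kinase of the complex, was not called. It measured 43.8, 43.8, 45.7 and 44.4 in WT and 47.6, 44.0, 50.03 and 45.9 in HdR, with HdR 2 inside the WT range (0.075 ± 0.05, adjusted p = 0.229).

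Of 6 central spindle and cytokinesis genes, 5 were called higher and 0 lower (median 0.25; 5 and 0 at an unadjusted p under 0.05 and with limma-voom). Kif20a, the kinesin that carries the passenger complex and PLK1 to the central spindle (chromosome 18, 34624613 to 34633277), measured 61.5, 59.0, 57.8 and 66.7 in WT and 91.3, 90.4, 96.6 and 88.7 in HdR. Its log2 fold change of 0.58 ± 0.049 had the smallest adjusted p of the 45 genes (8.56e-08). Kif20a shares 31.8% of its exon length with Cdc23 on the opposite strand, where reads of the genes cannot be told apart without strand, and Cdc23 was itself at 0.24 ± 0.045. Kif23 (0.31 ± 0.047) and Racgap1 (0.19 ± 0.042) together form centralspindlin, which bundles midzone microtubules, and both had separated groups. Anln, which encodes the contractile-ring scaffold anillin, rose from 175, 174, 171 and 198 to 223, 217, 236 and 217 (0.32 ± 0.045). The midzone bundler gene Prc1 rose from 122 ± 6.5 to 135 ± 6.09 (0.16 ± 0.045, adjusted p = 0.00981), with HdR 4 at 127 next to WT 4 at 126. Prc1 shares 26.6% of its exon length with Rccd1 on the opposite strand. Ect2, the RhoA activator that Racgap1 recruits, was not called, at 67.0, 69.0, 57.3 and 69.3 in WT and 71.8, 69.4, 74.0 and 66.0 in HdR (0.10 ± 0.058, adjusted p = 0.171).

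**Figure D3:**
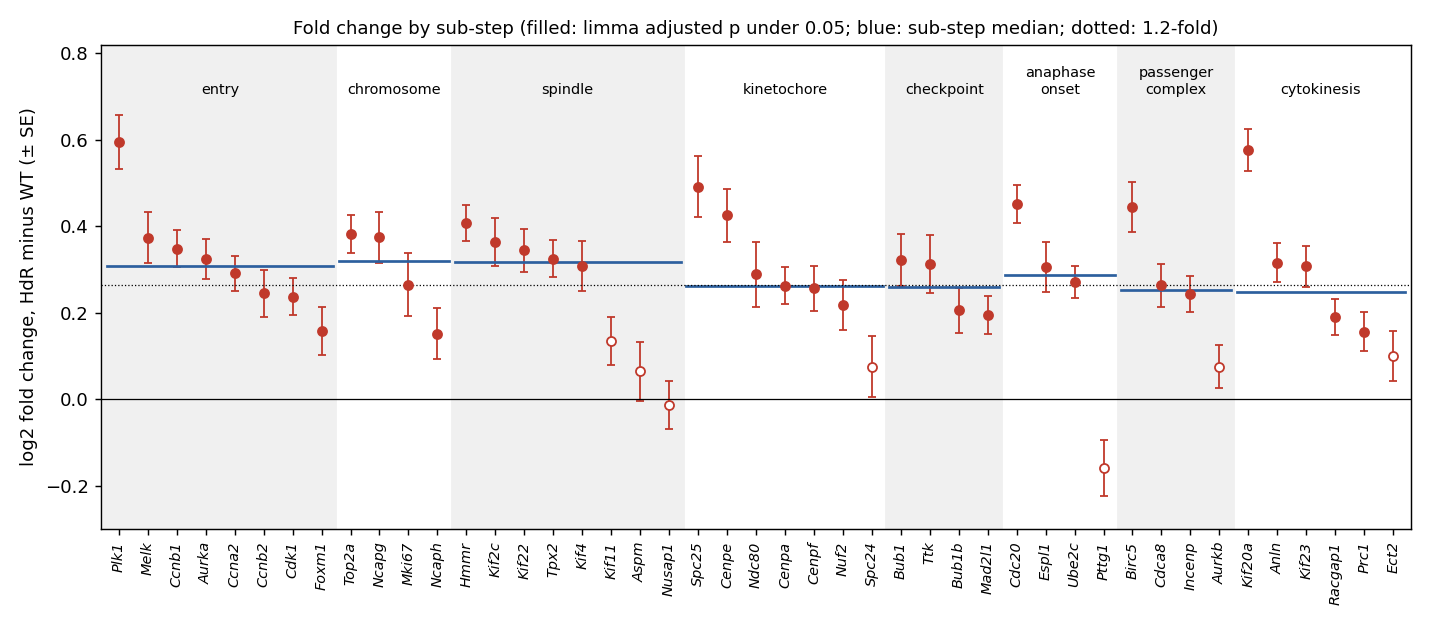
Log2 fold change (HdR minus WT) with its SE for each of the 45 genes, ordered by sub-step, with filled points for genes called at a limma adjusted p under 0.05, a blue line at each sub-step's median and a dotted line at a 1.2-fold change. The 8 medians lie between 0.25 and 0.32, and the 7 open points, Kif11, Aspm, Nusap1, Spc24, Pttg1, Aurkb and Ect2, fall in 5 different sub-steps.

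Set side by side, the sub-steps had nearly the same median. The medians ran from 0.25 in cytokinesis and the passenger complex to 0.32 in chromosome structure and the spindle, while single genes within the anaphase sub-step ran from -0.16 for Pttg1 to 0.45 for Cdc20. Relative to the WT mean, the median gene of each sub-step lay between 0.20 and 0.39 in every HdR library and between -0.08 and 0.12 in every WT library. HdR 3 was the highest HdR library in 7 of the 8 sub-steps, and WT 4 was the highest WT library in all 8. No sub-step was shown to differ from another, since no test of lists was made.

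**Figure D4:**
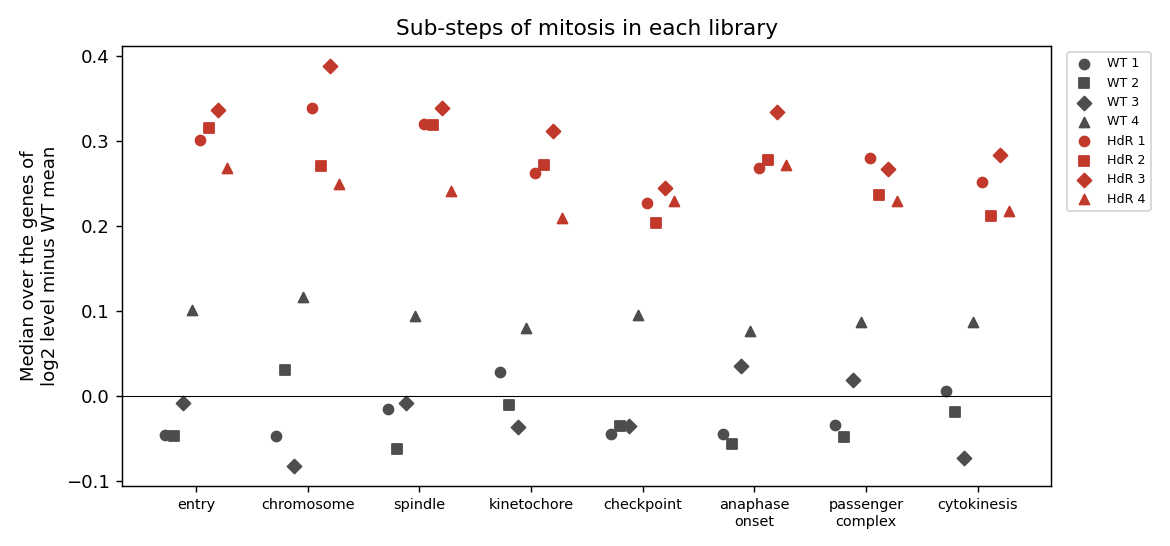
Median over the genes of each sub-step of the log2 level minus the gene's WT mean, with grey symbols for WT 1 to WT 4 and red symbols for HdR 1 to HdR 4. The red symbols lie above all grey symbols in each of the 8 sub-steps, and the WT 4 triangle is the highest grey symbol in each.

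Partner genes were compared as the log2 ratio of 2 genes within a library, after adding the pseudocount of 1 to the scaled levels. Across 8 such pairs, each tested with a two-sided exact permutation test over the 8 libraries (70 regroupings, smallest possible p = 0.0286), no adjusted p was under 0.05. At this size a single pair could not pass: alone at the smallest p it has an adjusted p of up to 0.229, and at least 5 pairs would have to reach the smallest p together. The largest difference was between separase and securin. The ratio of Espl1 to Pttg1 was 0.492 ± 0.124 in WT and 0.956 ± 0.103 in HdR (SD, n = 4), a difference of 0.464 with no overlap between the groups (exact permutation p = 0.0286, adjusted p = 0.137 over the 8 pairs). Incenp to Aurkb differed by 0.168 and Kif23 to Racgap1 by 0.117 (exact permutation p = 0.0571 for each, adjusted p = 0.137). Ccnb1 to Cdk1 differed by 0.111 and Bub1b to Bub1 by -0.117 (exact permutation p = 0.0857 for each, adjusted p = 0.137). Ect2 to Racgap1 (-0.0893), Nuf2 to Ndc80 (-0.0708) and Tpx2 to Aurka (0.0011) had exact permutation p of 0.257, 0.571 and 0.971. The Tpx2 to Aurka ratio was 0.899 ± 0.0188 in WT and 0.90 ± 0.0543 in HdR.

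Divided by exon length, levels can be compared between genes only roughly. The length joins the exons of all annotated protein-coding transcripts of a gene, so a long transcript that is little used lowers its level. The annotation used in the counting is also not given. Per Mb and kilobase of exon, Cdc20 had the highest level of the 45 in both groups, at 58.7 ± 3.37 in WT and 80.5 ± 2.88 in HdR (SD, n = 4). Ube2c followed at 51.9 ± 2.17 and 62.6 ± 1.11. In WT these were followed by Ccnb1 (43.1 ± 2.37), Top2a (42.3 ± 2.81) and Cdca8 (41.3 ± 3.08), whose levels overlapped within their SD. The lowest levels in WT were those of Aspm (3.24 ± 0.345), Espl1 (4.14 ± 0.265) and Cenpf (4.79 ± 0.313), all genes of long transcripts. Between the genotypes, Plk1 went from place 13 to 9 and Pttg1 from place 30 to 38. Mad2l1, at 6.14 ± 0.19, has an annotated exon length of 8032 bases, which includes every exon of its protein-coding transcripts.

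Other genes of mitosis were also counted, in lists drawn up by function. In 7 further lists of 142 mitosis genes, 62 were called higher, 5 lower and 75 not called (median 0.14). These are 43.7% and 3.52%, against 21.7% higher and 23.4% lower over all tested genes, and the genes named for each list are those with the smallest p, not the largest fold change. Other mitotic kinesins and spindle proteins came closest to the 45, with 19 of 25 higher and 0 lower (median 0.28; 21 and 0 at an unadjusted p under 0.05 and with limma-voom), with Kif18b (0.53 ± 0.068), Tacc3 (0.39 ± 0.05) and Kifc1 (0.29 ± 0.045) named by p. The anaphase-promoting complex core is present through much of the cell cycle. Among 17 genes of the core, its cofactors and its inhibitor, 4 were higher, or 23.5%, near the share over all tested genes, and 0 lower (median 0.078). The counts were also 4 and 0 at an unadjusted p under 0.05 and with limma-voom. The 4 were Cdc23, Anapc4 (0.23 ± 0.052), Cdc27 (0.21 ± 0.049) and the APC/C inhibitor gene Fbxo5 (0.34), the last named after its value was seen. Cdc23 is the gene that shares exon bases with Kif20a. Centromere and other kinetochore genes had 13 of 34 higher and 0 lower (median 0.11). The counts were 13 and 1 at an unadjusted p under 0.05 and 12 and 0 with limma-voom. Trip13 (0.36 ± 0.059), Spdl1 (0.40 ± 0.075) and Zw10 (0.25 ± 0.05) had the smallest p. The 13 called higher fell to 7 in the thinned comparison, and 1 gene was called lower without HdR 1.

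Cohesin and condensin had 9 of 18 genes higher and 0 lower (median 0.12; 9 and 1 at an unadjusted p under 0.05, 9 and 2 with limma-voom), with 3 lower without WT 3 and 1 without HdR 4. The cohesin gene Smc1a (0.25 ± 0.038), the cohesin-protecting shugoshin gene Sgo2a (0.41 ± 0.066) and the condensin gene Smc2 (0.31 ± 0.051) had the smallest p. Centrosome and augmin genes had 8 of 17 higher and 0 lower (median 0.18; 11 and 0 at an unadjusted p under 0.05, 10 and 0 with limma-voom), including γ-tubulin (Tubg1, 0.32 ± 0.046), Nek2 (0.30 ± 0.057) and the centriole gene Stil (0.51 ± 0.093). Among CDK1 regulators, 6 of 13 were higher and 2 lower (median 0.13). These are 46.2% and 15.4%, against 21.7% and 23.4% of all tested genes, so the lower share was below that over all genes. The CDK-activating phosphatase gene Cdc25a (0.46 ± 0.057) and the CDK1-inhibiting kinase gene Wee1 (0.43 ± 0.057) rose together with Gtse1 (0.53 ± 0.075). The lower pair, named after their values were seen, were Ensa (-0.16) and Pkmyt1 (-0.17), and the count was 1 in the thinned comparison, with upper-quartile scaling, library totals only or no filter, and without WT 2 or HdR 4.

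Of the 18 regulators of this transcription programme, the MuvB, DREAM and E2F genes, 3 were higher and 3 lower (median 0.04), which is 16.7% in each direction and no more than the shares over all tested genes. Mybl2, which encodes B-MYB, measured 46.7, 45.2, 47.3 and 52.2 in WT and 61.2, 59.5, 66.6 and 61.0 in HdR (0.37 ± 0.053), and the E2F partner gene Tfdp1 rose by 0.27 ± 0.042. The retinoblastoma gene Rb1 fell from 36.3, 36.7, 28.3 and 34.5 to 25.0, 24.1, 24.0 and 23.1 (-0.47 ± 0.072). The other called genes, named after their values were seen, were E2f8 (0.22) and the lower E2f2 (-0.51) and Tfdp2 (-0.30). With upper-quartile scaling 6 of the list were higher. Of the DNA replication and S phase genes, 30 of 35 were higher and 0 lower (median 0.35; 31 and 0 at an unadjusted p under 0.05 and with limma-voom), and Rrm2 (0.61 ± 0.045), Fen1 (0.55 ± 0.049) and Mcm3 (0.46 ± 0.042) had the smallest p. Against a 1.2-fold null, 9 of the 35 were higher, beside 6 of the 45 mitosis genes, and the difference between the lists was not tested. In the promoters of the DNA replication genes, TTTGAA stood in 4 of 32 windows (12.5%). It stood in 75% for the mitosis genes and 69.6% for the other kinesins and spindle proteins. In the remaining mitosis lists it ran from 13.3% for centrosome and augmin genes to 38.2% for centromere and other kinetochore genes. CCAAT stood in 59.4% of the DNA replication windows, compared with 75% for the mitosis genes.

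**Figure D5:**
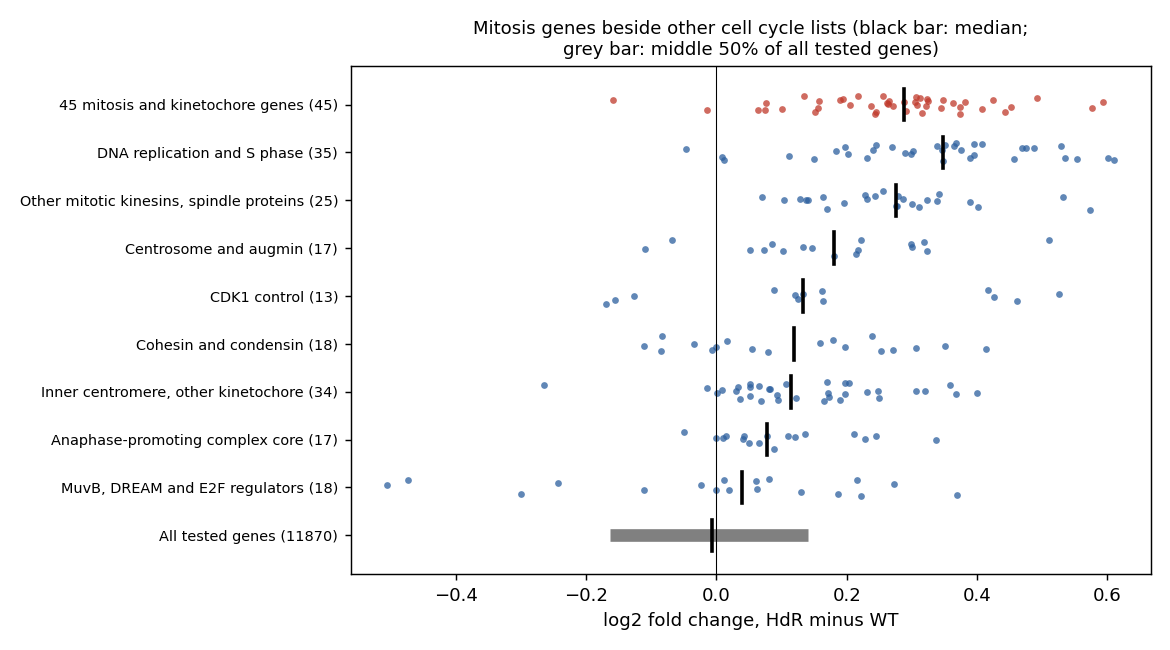
Log2 fold change (HdR minus WT) of each gene in the 45 mitosis and kinetochore genes (red) and in 8 other cell cycle lists (blue), with the number of genes in brackets, a black bar at each median and a grey bar for the middle 50% of all 11870 tested genes. The medians run from 0.35 for DNA replication to 0.04 for the MuvB, DREAM and E2F regulators, and the mitosis genes stand at 0.29.

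Some markers listed for other cell types also differed between the groups. Of 11 tested suprabasal keratinocyte markers, 10 were called lower and 0 higher (0 higher at an unadjusted p under 0.05, 1 with limma-voom), and the summed level of the list was 2496 to 3389 per Mb in WT and 1703 to 1980 in HdR. Over all tested genes 23.4% were called lower and 21.7% higher, shares that also stand beside the other marker counts below. WT 4, highest of the WT libraries in 38 of the 45 mitosis genes, was also the WT library with the lowest suprabasal sum. Over all tested genes WT 4 was the highest WT library in 24.4%, and over all genes called higher in 43.9%, beside 35 of the 38 called mitosis genes. For the 38 called genes WT 4 lay a median 0.335 of the distance between the mean of WT 1 to WT 3 and the HdR mean, and without WT 4 the number called higher was 39. Of 7 tested melanocyte markers, 6 were lower and 0 higher (also 0 at an unadjusted p under 0.05 and with limma-voom), with sums of 53.0 to 61.1 per Mb in WT and 27.7 to 29.7 in HdR. Leukocyte markers summed to 52.1 to 66.1 in WT and 42.9 to 43.9 in HdR, mostly from Cd68, with Cd207 and Lyz2 at 0 in every library and Ptprc near 0. The 2 genes of that list that reached the filter, Cd68 (-0.49) and Itgam (-0.46), were both called lower. Ptprc, Cd3e, Csf1r and Cd74 did not reach it, so these 2 genes do not show a difference in leukocytes. Fibroblast markers summed to 0.329 to 1.22 in WT and 0.501 to 5.27 in HdR and none reached the filter. Endothelial markers summed to 5.34 to 6.89 and 7.56 to 9.2, mostly from Egfl7 (mean 5.1 in WT and 5.99 in HdR). Egfl7 was the only endothelial marker to reach the filter and was not called (limma adjusted p = 0.125). The part of these marker differences in the mitosis result was not tested.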

How the data were processed

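The authors deposited 1 table of 19457 gene symbols by 8 libraries holding a coverage signal: for every gene, the bases of aligned reads added up as a whole number, not scaled by depth or length. Neither labels nor header name the unit, which was inferred from the values. Steps of 302 bases were the most frequent (302, 604 and 906), and 16.9% of low values were whole multiples of that step. Per the submitters' processing notes, reads were placed on GRCm38. The aligner, counter, annotation and strand setting are not given in the sources used here. Per the labels' protocols, RNA was taken from culture plates with an RNeasy mini kit, and NEBNext Ultra II RNA reagents were used for the libraries.

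Each library was scaled with unweighted trimmed-mean (TMM) factors (30% of log ratios and 5% of levels trimmed at each end, reference the library with the upper quartile nearest the mean). Genes with a mean of at least 1 per Mb were fitted with limma 3.58.1 in R 4.3.3 on log2 values with a pseudocount of 1 (trend and robust variance, statmod 1.5.0), HdR minus WT, two-sided. P-values were adjusted (Benjamini-Hochberg) across 11870 genes, with calls at adjusted p under 0.05. This pseudocount slightly understates the fold changes. The calculation was tested on simulated data. No counting interval is given, because bases of 1 read are not independent. Coordinates, exon lengths and overlaps came from GENCODE vM21, matched by symbol for all 45 genes, and promoter windows from RefSeq (GRCm38.p6). Figures used Python 3.11.15 and matplotlib 3.10.9.

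The 45 genes, the 8 sub-steps and the other lists were chosen with earlier results of these data known. All 45 were named, with the 3 smallest p of each other list, Rbck1, and marker lists as counts and sums. The cell type marker lists were basal and suprabasal keratinocyte, melanocyte, fibroblast, leukocyte and endothelial genes. The labels share replicate numbers between genotypes. Same-numbered libraries did not deviate together (correlations -0.223 to 0.0277), so the numbers were not taken as pairs. There were 20 alternatives for the fit and 9 for the partner ratios. All 8 libraries entered the main comparison.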

Additional observations from a re-analysis of the deposited data

Results flagged for a closer look

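Within each genotype, the library farthest from the others was compared with the spread of its group for each of the 45 genes, 90 groups of 4 in all. In 6 of them the gap of 1 library to its nearest neighbour, as a share of the group's range, exceeded Dixon's 95% critical value for 4 samples. Chance flags about 1 in 20 groups, which is close to this number. WT 4 was high for Bub1 (40.2 per Mb, next 35.1) and for Anln (198, next 175). WT 3 was low for Prc1 (111.9, next 124) and WT 2 was low for Nusap1 (30.5, next 33.9). HdR 1 was high for Ttk (29.3, next 25.2) and HdR 2 was high for Pttg1 (18.7, next 17.0).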

How the results depend on the processing

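Of the 45 genes, the number called higher was 36 to 39 under every alternative except the test against a 1.2-fold change, where it was 6. The replicate block gave 36 higher and 0 lower (Foxm1 and Ncaph lost their calls), the thinned comparison 37 and no filter 36. When each library was left out in turn, 36 to 39 were higher and 0 to 1 lower, the 1 being Pttg1, and the same 0 to 1 applied to the anaphase genes. Against a 1.2-fold change 347 of all genes were higher and 537 lower. The sub-step counts there were 1 for entry, spindle, kinetochore, anaphase, passenger complex and cytokinesis and 0 for chromosome structure and checkpoint. The list counts there were 9 for DNA replication, 2 for CDK1 control and for other spindle proteins, 0 for the remaining 5 lists, and 0 lower for CDK1 control and for the E2F list. Lower CDK1 control genes numbered 1 with upper-quartile scaling, library totals only, no filter, thinning, and both WT 4 and HdR 4 left out, and 1 to 3 with single libraries left out. The centromere list had 7 higher after thinning and 0 to 1 lower with libraries left out, and cohesin and condensin had 2 lower with limma-voom and 0 to 3 with libraries left out. The E2F list had 6 higher under upper-quartile scaling and 5 under totals. The Nusap1 log2 fold change reversed to 0.022 under upper-quartile scaling and 0.0086 under totals, and ran from -0.054 to 0.0024 with libraries left out (0.0014 without WT 1, 0.0017 without WT 3). The Tpx2 to Aurka difference was -0.00126 with a pseudocount of 0 and -0.0207 to 0.0217 with libraries left out. The causes of these changes were not tested. Upper-quartile scaling moved the share of higher calls over all genes from 48% to 57.7%, and the median of the 45 genes from 0.288 to 0.324. Depth was lower in every HdR library than in any WT library.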

Other observations

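Rbl1, which encodes the pocket protein p107 of the DREAM complex, differed more within genotypes than between them, and it was singled out after its values were seen. It measured 30.3 per Mb in WT 1 against 64.0, 56.9 and 65.4 in the other WT libraries, and 33.0 in HdR 2 against 70.7, 71.5 and 62.5 in the other HdR libraries. The low libraries were not low in the summed mitosis level, at 2975 in WT 1 and 3677 in HdR 2.

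The 5 DNA replication genes that were not called, also singled out after their values were seen, were Cdc45 and the 4 GINS genes, whose proteins join the MCM ring to form the replicative helicase. Their log2 fold changes were 0.012 for Cdc45, -0.046 for Gins1, 0.11 for Gins2, 0.24 for Gins3 and 0.0088 for Gins4, beside 0.46 for Mcm3 and 0.18 for Mcm6. Gins3 and Gins1 were low, at 5.09 and 9.34 per Mb in WT, with SE of 0.11 and 0.095. Gins3 missed the threshold (limma adjusted p = 0.0773) at a larger fold change than Mcm6, which was called with an SE of 0.039.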
